A study of Arabidopsis thaliana with 18 samples.

Results

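The comparison described here set aerial parts of wild type (WT) *Arabidopsis thaliana* seedlings grown on methyl viologen (MV) against WT seedlings grown on the control medium. It takes the arrays titled for Col-0 with MV and for Col-0 under the control condition, which are 3 arrays each, or 6 of the 18 arrays of the series. WT is the accession Col-0 with no mutation or transgene. The WT MV group grew on Murashige and Skoog medium with MV, whose concentration is given as 0.05 µM in the study's methods and as 0.05 M in the sample labels. The WT control group grew on the same medium without MV. All of these seedlings were 18 days old and grew at 22 °C with 16 h of light and 8 h of darkness on 1% sucrose, and each array held a single biological replicate. The other arrays used below are 3 of WT under phosphate limitation (P-lim) and 3 each of *pad2-1* with MV and *pad2-1* under the control condition. The *pad2-1* line carries a mutation in *GSH1*, the gene for the first enzyme of glutathione synthesis, and holds little glutathione. The descriptions of the WT MV arrays name the normal medium, so these arrays were placed by their titles and treatment labels, and no transcript serves as a check of the treatment.

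MV, also known as the herbicide paraquat, accepts electrons from photosystem I in the chloroplast and passes them to oxygen, which yields superoxide and then hydrogen peroxide in the light. Leaves remove these with superoxide dismutases and with the ascorbate and glutathione systems, and reduce or conjugate the damaged molecules with aldo-keto reductases, glutathione transferases and glycosyltransferases. At doses that leave seedlings alive, genes of hormone signalling, secondary metabolism and growth are known to change along with these defences.

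The values are log2 expression values from ATH1 arrays, on which a probe set stands for 1 or more genes, and a difference of 1 is a doubling. The correlation between arrays across probe sets was 0.9964 to 0.9975 within WT MV, 0.9983 to 0.9984 within WT control and 0.9929 to 0.9950 between the groups. Of 22746 probe sets tested, 13647 had 1 gene name in the sources used here, so many of the changes below cannot be named. Of the green leaf markers *RCA* and *SBPASE* were measured. *RCA*, Rubisco activase, read 13.20, 13.17 and 13.24 in the MV arrays, against 13.26, 13.23 and 13.21 in the control arrays. *SBPASE*, of the Calvin cycle, lay higher in all MV arrays, by 0.16 on average, with adjusted p = 0.0608. Of the root markers 3 were measured, and their mean level per array was 5.82 to 5.97 under MV and 5.55 to 5.66 under the control condition. That difference lay in *PYK10*, described below, while *EXPA7* and *EXPA18* differed by -0.17 and 0.12 with adjusted p = 0.156 and 0.474. Flower, guard cell and trichome markers had 1 measured member each, and all 3 were called with the arrays apart, *AGL42* at -0.40, *FMA* at -0.30 and *TRY* at 0.42 (adjusted p = 0.0313, 0.0118 and 0.0163). Without 1 array these calls were lost, *AGL42* and *TRY* in several fits (adjusted p up to 0.138 and 0.0817) and *FMA* without MV array 3 or control array 2 (0.0567 and 0.0701), and *TRY* was 0.26 without MV array 3. The part of cell types in the results below was not tested. In whole aerial parts, fewer cells of a type and less RNA per cell cannot be told apart.

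MV raised 87 probe sets and lowered 81, which is 0.382% and 0.356% of those tested, where a call needed an adjusted p under 0.05 together with a change of at least 1 on the log2 scale. At the adjusted p alone, 1815 probe sets (7.98%) were higher and 1265 (5.56%) lower. Between its quartiles the log2 fold change over all probe sets ran from -0.06 to 0.10, with a median of 0.02. The falls included the larger changes, with 12 probe sets lowered by 2 or more on the log2 scale and 3 raised by as much. Within the raised probe sets the median level was 6.92 under MV and 5.58 under the control condition, and within the lowered 6.12 under MV and 7.62 under the control condition. Of the raised probe sets 39 had 1 gene name, 2 had several and 46 had none, and of the lowered 47 had 1 name and 34 none. The MV arrays lay wholly above or wholly below the control arrays at 6855 probe sets, or 30.1% of those tested. Of the 168 called with the minimum change 166 were apart in this way, so the separation adds little to a call. Each call of a single gene for MV against control in WT given below also held in the 6 fits that left out 1 WT MV or WT control array, except where a lost call is stated.

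**Figure D1:**
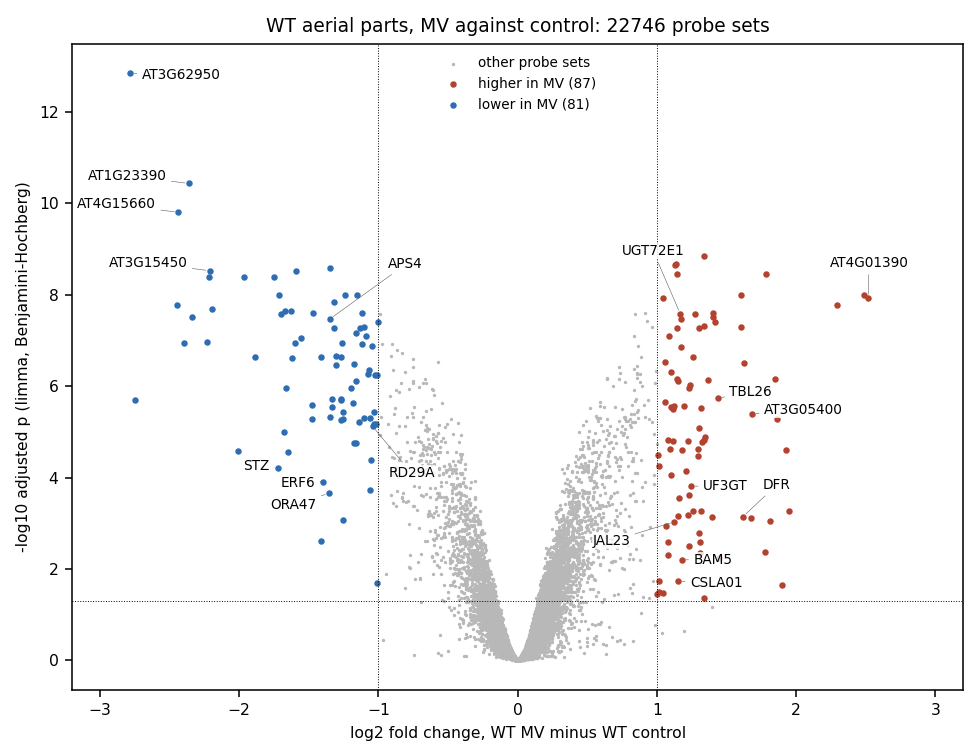
Log2 fold change of each of 22746 probe sets in WT MV over WT control (x axis) against -log10 of the limma adjusted p (y axis), with dotted lines at the thresholds. The 87 raised probe sets are red and the 81 lowered are blue, and the lowered side reaches further from 0 and higher on the y axis, with *AT3G62950* at the top.

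The steepest falls belonged to genes that carry a locus tag but no symbol in the annotation used here. *AT3G62950* read 2.67, 2.67 and 2.75 in the 3 MV arrays, against 5.34, 5.47 and 5.63 in the control arrays. The groups stood far apart (log2 fold change -2.78 ± 0.08 SE, adjusted p = 1.41e-13). Another, *AT1G23390*, read 7.37, 7.22 and 7.16 under MV, against 9.66, 9.62 and 9.55 under the control condition, a log2 fold change of -2.36 ± 0.09 SE (adjusted p = 3.66e-11). The lowest control array stood more than 2 log2 units above the highest MV array. Levels of *AT3G15450* were 7.19, 7.16 and 6.84 under MV and 9.34, 9.24 and 9.23 under the control condition, so the spread within each group was small beside the difference of -2.21 ± 0.12 SE (adjusted p = 2.97e-09).

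A cluster of neighbouring genes on chromosome 4 fell together. *AT4G15690* and *AT4G15700* are adjacent coding genes, and *AT4G15660* is separated from the first of them by 2 coding genes. *AT4G15660* read 3.98, 3.73 and 4.17 under MV, against 6.34, 6.42 and 6.42 in control arrays (-2.44 ± 0.11 SE, adjusted p = 1.57e-10). *AT4G15700* read 2.88, 2.69 and 2.78 under MV and 4.96, 5.00 and 5.05 in the control, and *AT4G15690* read 4.33, 3.94 and 3.92 under MV and 6.08, 5.85 and 6.17 in the control. All MV arrays were below all control arrays for the 3 genes, and the changes of the last pair were -2.22 ± 0.13 SE and -1.97 ± 0.11 SE (adjusted p = 4.03e-09 and 4.03e-09). Whether the probes of one of these genes also bind transcripts of its neighbours was not tested. Of the 15 largest falls with arrays fully apart 11 had a name and the other 4 cannot be named. The named ones not yet given were *AT3G07350* (-2.40), *AT2G20670* (-2.34), *AT4G27280* (-2.23), *AT2G05540* (-2.20) and *AT5G19120* (-1.89), with adjusted p between 2.08e-08 and 2.25e-07.

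Of the 15 largest rises with arrays fully apart, 3 had a name. *AT4G01390* was the largest named rise. Its MV arrays read 8.48, 8.77 and 8.87, against 5.95, 5.97 and 6.64 in the control, a log2 fold change of 2.52 ± 0.16 SE or a 5.73-fold higher level (adjusted p = 1.17e-08). Control array 3 was the highest of its group, still well below every MV array. *AT3G05400* read 7.59, 8.51 and 7.46 under MV, with array 2 above the others, and 6.14, 6.13 and 6.23 in the control (1.68 ± 0.18 SE, adjusted p = 4.04e-06). The third, *DFR*, belongs to the pigment genes described next.

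**Figure D2:**
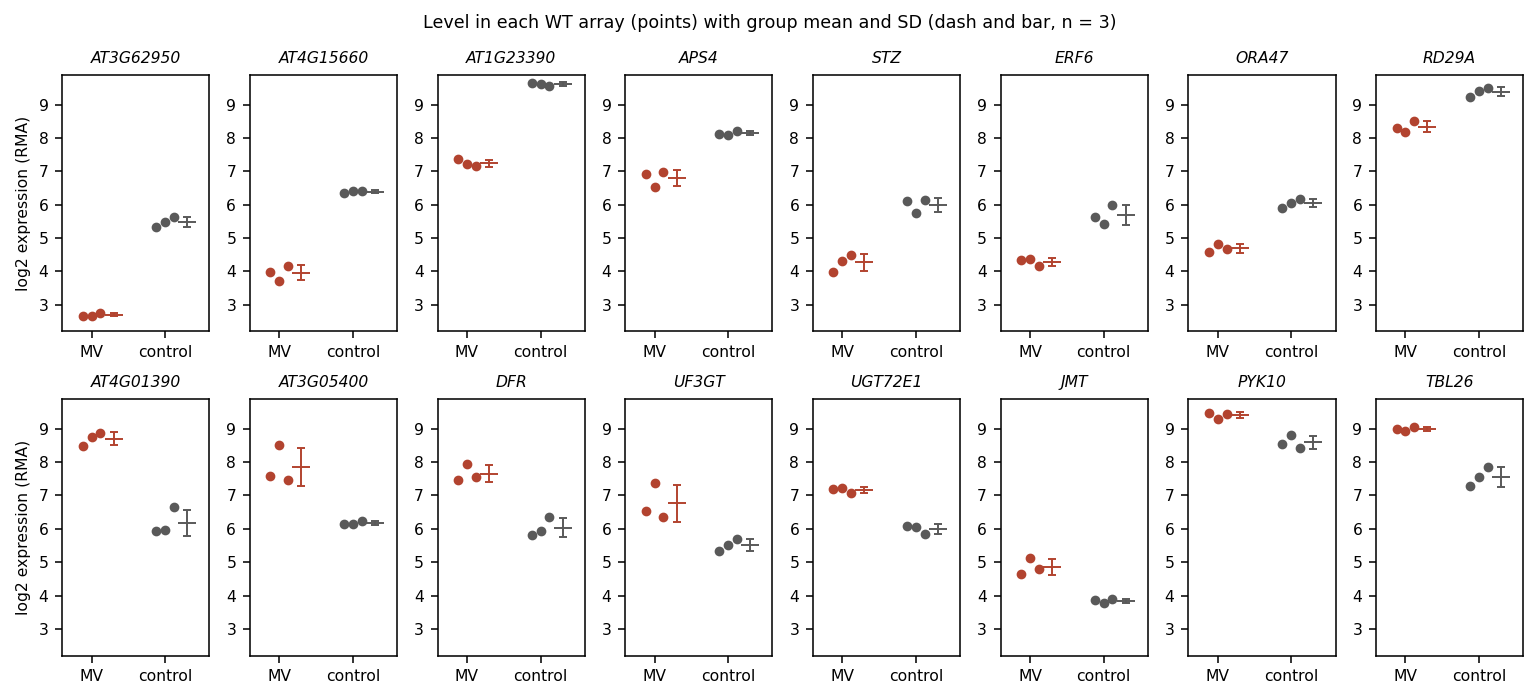
Log2 expression of 16 genes (y axis, RMA scale) in the 3 WT MV arrays (left in each panel, red) and the 3 WT control arrays (right, grey), with the group mean and SD beside the points. In all 16 panels the MV points lie wholly above or wholly below the control points, and the spread among MV arrays is widest for *AT3G05400* and *UF3GT*, where array 2 is highest. Over all probe sets tested, 30.1% were apart in this way.

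Most measured genes of flavonoid and anthocyanin synthesis rose under MV. Of 8 measured list members 5 were higher and none lower, with a median log2 fold change of 0.43, against 0.02 over all genes, of which 6.71% rose and 5.15% fell at the adjusted p. The counts of every list below are to be read beside these shares, and no list was tested as a set. They cover only members with a named probe set, here 8 of 36. Below they cover, for example, 14 of 49 glutathione transferases, 27 of 251 cytochromes P450 and 51 of 64 UDP-glycosyltransferases. *DFR*, dihydroflavonol reductase at the entry to the anthocyanin branch, read 7.47, 7.95 and 7.55 under MV, against 5.81, 5.93 and 6.37 in the control. Its lowest MV array was more than 1 log2 unit above the highest control array, and the change was 1.62 ± 0.29 SE (adjusted p = 7.11e-04). *UF3GT*, which adds xylose to anthocyanins, read 6.54, 7.39 and 6.36 under MV, with array 2 highest, and 5.33, 5.52 and 5.70 in the control (1.25 ± 0.19 SE, adjusted p = 1.53e-04). The malonyltransferase *AT5MAT* rose by 0.67, and the flavonoid glycosyltransferases *UGT78D1* and *UGT78D2* by 0.44 and 0.43 (adjusted p = 2.54e-04, 5.76e-05 and 3.82e-05). Values were 0.21 for the flavonol regulator *MYB12*, 0.11 for the proanthocyanidin gene *BAN* and 0.05 for *UGT78D3*, with adjusted p from 0.177 to 0.756. *CHIL*, a chalcone isomerase-like gene noticed after its values were seen, also rose (0.58 ± 0.13 SE, adjusted p = 0.00559), although its lowest MV array, 7.42, lay below the highest control array, 7.43.

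UDP-glycosyltransferases attach sugars to hormones, secondary metabolites and foreign compounds. Of 51 measured 8 rose and none fell, and the median was 0.04. *UGT72E1*, which glucosylates lignin precursors, read 7.195, 7.23 and 7.07 under MV, against 6.09, 6.07 and 5.83 in the control (1.17 ± 0.08 SE, adjusted p = 2.60e-08). *UGT74D1*, an auxin glucosyltransferase, read 7.88, 8.00 and 7.59 under MV and 6.92, 6.90 and 6.93 in the control. The increases of *UGT74D1* and *UGT72B3* were 0.91 ± 0.09 SE and 0.81 ± 0.09 SE (adjusted p = 2.56e-06 and 5.18e-06). *GT72B1*, known for glucosylating chlorinated foreign compounds, rose by 0.55 and *UGT87A2* by 0.46 (adjusted p = 2.71e-05 and 0.00850). The other members called, *UF3GT*, *UGT78D1* and *UGT78D2*, are the pigment genes above.

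Glutathione transferases and cytochromes P450 had calls in both directions. Of 14 glutathione transferases 1 rose and 2 fell, beside 6.71% and 5.15% of all genes, with a median of 0.09. *GSTU23* read 4.59, 4.87 and 5.02 under MV, against 5.52, 5.78 and 5.73 in the control, a change of -0.85 (adjusted p = 4.13e-05), and *GSTU27* rose by 0.35 (adjusted p = 0.00209). The other, *GSTU18*, fell by 0.18 (adjusted p = 0.0393) and lost its call in 5 of the 6 fits that left out 1 array. Without MV array 2 it was -0.12 with adjusted p = 0.187. Of 27 cytochromes P450 5 rose and 1 fell, with a median of 0.05. *CYP71B36*, *CYP78A9*, *HPL1* (hydroperoxide lyase of oxylipin synthesis) and *CYP96A1* rose by 0.69, 0.58, 0.52 and 0.43, with adjusted p from 2.19e-04 to 0.00128. The other P450 calls, *CYP71B23* (0.58, adjusted p = 0.0325) and *CYP71B26* (-0.29, adjusted p = 0.0245), were each lost when MV array 3 or control array 2 was left out, with adjusted p from 0.0591 to 0.131. *CYP71B23* was also lost without MV array 2 or control array 1 and *CYP71B26* without MV array 1 or control array 3, at adjusted p up to 0.176.

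The measured genes on a list for the removal of reactive oxygen changed by small amounts. Of 41 list members 7 were measured, with no superoxide dismutase or catalase among them, so most of these enzymes are not covered. Of the 7 measured genes 3 rose and 1 fell, all with the arrays of the groups apart, and the median was 0.28. The rises included both measured genes of ascorbate synthesis. *CYT1*, GDP-mannose pyrophosphorylase, read 10.27, 10.34 and 10.46 under MV, against 9.86, 9.97 and 9.95 in the control (0.43 ± 0.07 SE, adjusted p = 4.80e-04). *VTC4*, L-galactose-1-phosphate phosphatase, read 8.96, 8.98 and 8.93 under MV and 8.60, 8.58 and 8.59 in the control (0.37 ± 0.06 SE, adjusted p = 3.80e-04). The mitochondrial peroxiredoxin *PRXIIF* rose by 0.28 (adjusted p = 0.00469). *CCS*, the copper chaperone of superoxide dismutase, read 6.14, 5.95 and 6.06 under MV, against 6.39, 6.40 and 6.50 in the control, a change of -0.38 (adjusted p = 2.41e-04). The chloroplast ascorbate peroxidases *TAPX* and *SAPX* and glutathione reductase *GR* had values of 0.05, 0.33 and 0.01 and adjusted p of 0.620, 0.216 and 0.952. *MSRB5*, a methionine sulfoxide reductase that repairs oxidized proteins, was picked out after its values were seen. It read 10.09, 10.49 and 10.12 under MV, against 9.12, 9.42 and 9.35 in the control (0.94 ± 0.09 SE, adjusted p = 2.03e-06). Among thioredoxins and peroxiredoxins the chloroplast thioredoxin *TRXF2* fell by 0.37 (adjusted p = 0.00172). Glutaredoxins were counted only where the annotation used here gives a symbol, so members known by a locus tag alone are not covered. Of the 5 with a symbol 1, *GRXC1*, was called at 0.16 (adjusted p = 0.0451), and that call was lost whichever of the 6 arrays was left out, at adjusted p from 0.0604 to 0.188. This count does not describe the family as a whole. The large falls *AT3G62950*, *AT4G15660*, *AT4G15690* and *AT4G15700* carry no family name in that annotation, so whether they belong to it is not covered here.

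Genes commonly used as markers of oxidative stress did not move as a group. Of 8 measured 2 rose and 3 fell, with a median of -0.43. *AKR4C9*, an aldo-keto reductase that reduces reactive carbonyls, read 5.41, 5.99 and 5.29 under MV, against 4.59, 4.96 and 4.47 in the control (0.89 ± 0.17 SE, adjusted p = 0.00182). *NAC032*, a stress-responsive NAC transcription factor, read 7.30, 7.46 and 7.35 under MV and 6.69, 6.85 and 6.84 in the control (0.58 ± 0.06 SE, adjusted p = 5.66e-06). The members that fell were *STZ*, *ERF5* and *ERF6*, given below. *ZAT12*, *WRKY33* and *SAG21* took log2 values of -0.37, -0.49 and 0.23 for the change, with adjusted p of 0.261, 0.0663 and 0.614. With only the 6 arrays of this comparison in the fit, *ZAT12* and *WRKY33* passed as falls with adjusted p of 0.00503 and 0.00152.

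Several transcription factors that plants switch on within minutes of a stimulus were lower under MV. Of 14 measured AP2 and ERF factors 5 fell and 2 rose, with a median of -0.16. *ERF6*, an ethylene response factor, read 4.34, 4.38 and 4.16 under MV, against 5.63, 5.43 and 6.004 in the control (-1.40 ± 0.20 SE, adjusted p = 1.22e-04). Its coding neighbour *ERF-1*, of the same family, read 4.32, 4.74 and 4.51 under MV and 5.22, 5.69 and 5.71 in the control (-1.02 ± 0.11 SE, adjusted p = 6.84e-06). *ORA47*, a factor that activates jasmonate synthesis genes, read 4.58, 4.83 and 4.67 under MV and 5.92, 6.05 and 6.18 in the control. For *ORA47* the arrays of both groups were tight and apart, and the change was -1.36 ± 0.21 SE (adjusted p = 2.20e-04). *ERF5* fell by 0.82 and *DREB2A*, a factor of dehydration and heat responses, by 0.82 (adjusted p = 3.24e-04 and 2.19e-04). *TINY2* rose by 0.61 (adjusted p = 7.39e-04), and the other rise, *SHN3* of cuticle formation, was 0.35 (adjusted p = 0.0125) and lost its call without MV array 2 (adjusted p = 0.0746) or control array 1 or 2 (0.0570 and 0.0758).

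*STZ*, a zinc finger repressor of stress responses also called *ZAT10*, read 3.997, 4.32 and 4.51 under MV, against 6.11, 5.74 and 6.13 in the control. The highest MV array was more than 1 log2 unit below the lowest control array, and the change was -1.72 ± 0.24 SE (adjusted p = 6.03e-05). On a list of genes that answer touch, wounding or handling within minutes, 4 of 13 measured members fell, *STZ*, *ERF6*, *ERF5* and *WRKY22* (-0.46, adjusted p = 0.00941). The mean level of that list per array was 4.33 to 4.41 under MV and 4.74 to 4.81 under the control condition, and a part of harvest or handling in these falls was not tested. The list's calcium sensors *CML37* and *CML38* had values of -0.05 and -0.15 with adjusted p of 0.720 and 0.501. One member rose, the ubiquitin ligase *PUB24*, at 6.09, 5.53 and 5.71 under MV, against 5.05, 4.95 and 4.91 in the control (0.81 ± 0.13 SE, adjusted p = 2.36e-04). Of 9 WRKY factors 3 rose by 0.17 to 0.36 and 2 fell, *WRKY22* and *WRKY15* (-0.35, adjusted p = 0.00746). Each of the 3 rises, *WRKY20*, *ZAP1* and *WRKY47*, lost its call in at least 4 of the 6 fits without 1 array, with adjusted p up to 0.161, 0.157 and 0.128.

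Abscisic acid and dehydration genes went down where they changed. Of 17 measured 5 fell and none rose, with a median of -0.18. *RD29A*, a reporter gene of drought and cold responses, read 8.31, 8.19 and 8.52 under MV, against 9.24, 9.41 and 9.50 in the control (-1.04 ± 0.12 SE, adjusted p = 7.57e-06). *NCED3*, the enzyme of the committed step of abscisic acid synthesis under drought, read 3.13, 3.15 and 3.33 under MV and 3.91, 3.76 and 3.84 in the control (-0.63 ± 0.11 SE, adjusted p = 6.58e-04). Both genes had every MV array below every control array. The dehydrins *COR47* and *LTI30* fell by 0.44 and 0.60 (adjusted p = 0.00809 and 0.0130), and *LTI30* missed the threshold without MV array 3 (adjusted p = 0.0530) or control array 2 (0.0705). *DREB2A* is the fifth. *RD29B* and the abscisic acid-responsive factor *ABF4* had changes of 0.09 and 0.01 (adjusted p = 0.675 and 0.957), and the cold regulators *DREB1A*, *DREB1B* and *DREB1C* of -0.18, -0.18 and -0.07 (adjusted p = 0.132, 0.430 and 0.708). Among genes noticed afterwards, the wax repressor *DEWAX* (*AT5G61590*) read 7.48, 7.48 and 7.09 under MV, against 8.72, 8.56 and 8.58 in the control (-1.27 ± 0.13 SE, adjusted p = 1.89e-06). *BLUS1* (*AT4G14480*), a kinase of blue light-driven stomatal opening, fell by 0.75, beside the lower guard cell marker *FMA* given above, and the cold-regulated *COR27* by 0.60 (adjusted p = 2.78e-05 and 1.59e-06).

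Jasmonate genes rose in part. Of 8 measured 4 were higher and none lower, with a median of 0.34. *JMT*, which makes methyl jasmonate, read 4.64, 5.13 and 4.81 under MV, against 3.87, 3.78 and 3.89 in the control (1.01 ± 0.13 SE, adjusted p = 3.17e-05). *MYC4*, a jasmonate-regulated bHLH factor, rose by 0.44 (adjusted p = 0.00479). *OPCL1*, of jasmonate synthesis, and *MYC3* rose by 0.47 and 0.25 (adjusted p = 0.0109 and 0.0257). *OPCL1* lost its call without MV array 1 (adjusted p = 0.0697) or control array 1 (0.0679), and *MYC3* without MV array 2 or 3 or control array 1 or 2 (0.0596 to 0.149). The defensin *PDF1.2b* had a value of 0.61 and adjusted p of 0.0515.

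Genes of the ER body, a store of β-glucosidase in the seedling epidermis, and the jacalin-related lectins that bind that enzyme were higher under MV. This list was made after the values were seen, and 6 of its 7 measured members rose. *PYK10*, the β-glucosidase, read 9.46, 9.30 and 9.45 under MV, against 8.55, 8.82 and 8.43 in the control (0.80 ± 0.14 SE, adjusted p = 7.03e-04). *NAI2*, which is needed to form ER bodies, read 7.07, 6.50 and 6.81 under MV and 5.99, 6.12 and 6.07 in the control (0.73 ± 0.13 SE, adjusted p = 5.81e-04). For both genes the 3 MV arrays lay above the 3 control arrays. The lectins *JAL23*, *JAL22*, *JAL33* and *JAL34* rose by 1.12, 0.88, 0.79 and 0.71, with adjusted p from 4.14e-05 to 0.00339. *NAI1*, the bHLH regulator of this set, had a value of 0.13 and adjusted p of 0.395. *PYK10* is also abundant in roots, and the part of root tissue in these values was not tested. The root expansins *EXPA7* and *EXPA18* were not called, as given above.

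Of 69 measured cell wall genes 16 rose and 1 fell, beside 6.71% and 5.15% of all genes, with a median of 0.08. *TBL26*, of a family of wall polysaccharide acetyltransferases, read 9.001, 8.92 and 9.06 under MV, against 7.27, 7.54 and 7.86 in the control (1.44 ± 0.14 SE, adjusted p = 1.82e-06). The expansin *EXPA15*, which loosens growing walls, read 8.73, 8.54 and 8.78 under MV and 7.91, 7.86 and 7.83 in the control (0.82 ± 0.08 SE, adjusted p = 2.56e-06). In *EXPA15* the groups were more than 0.6 log2 units apart. The expansin-like *EXLB1* rose by 0.88, the pectin methylesterase *PME12* (*AT2G26440*) by 0.79 and *TBL40* (*AT2G31110*) by 0.66 (adjusted p = 2.30e-07, 5.82e-06 and 2.82e-05). A second probe set of *TBL40* rose by 0.49 (adjusted p = 0.00122). *EXPA4*, *EXPA9*, *EXPA16* and *EXPB3* rose by 0.51, 0.59, 0.55 and 0.56. The fall was that of *EXGT-A3*, a xyloglucan endotransglucosylase (-0.51, adjusted p = 1.24e-04). The size of the change of *CSLA01*, a glucomannan synthase, depended on MV array 2. It read 5.32, 7.33 and 5.62 under MV, against 4.95, 4.84 and 5.01 in the control, and its change of 1.15 ± 0.31 SE (adjusted p = 0.0185) became 0.53 without MV array 2, where the call held (adjusted p = 0.00430). The call of *CSLA01* was lost without control array 1 (adjusted p = 0.0514) or 2 (0.0648), and with only the 6 arrays of the comparison in the fit (0.113). Of the 16 rises, 13 held in every fit without 1 array.

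**Figure D3:**
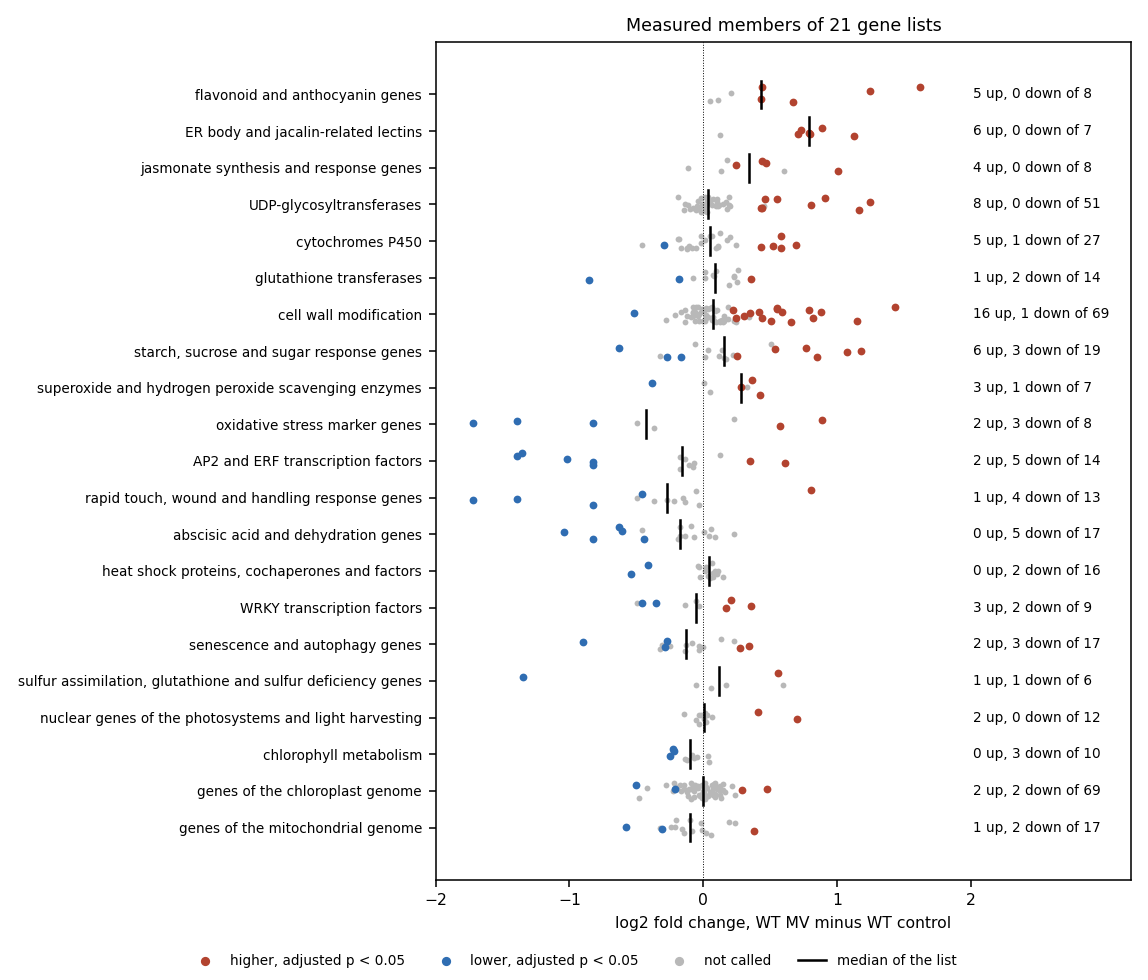
Log2 fold change in WT MV over WT control (x axis) of every measured member of 21 gene lists (rows), red for members higher and blue for members lower at an adjusted p under 0.05, grey for the rest, with the list median as a black bar and the counts at the right. The flavonoid, ER body and jasmonate rows have calls on the right side only, the dehydration row on the left side only, and the chloroplast genome row is centred on 0. Over all genes 6.71% were higher and 5.15% lower at this threshold.

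Sugar and starch genes changed both ways, with 6 of 19 measured members higher and 3 lower, and a median of 0.15. *BAM5*, a β-amylase, read 4.39, 5.56 and 4.41 under MV, with array 2 highest, against 3.44, 3.51 and 3.88 in the control (1.18 ± 0.27 SE, adjusted p = 0.00628). The sucrose exporter *SWEET13* read 6.04, 6.44 and 6.08 under MV and 5.19, 5.00 and 5.15 in the control (1.08 ± 0.13 SE, adjusted p = 1.48e-05). *APL3*, a subunit of ADP-glucose pyrophosphorylase in starch synthesis, rose by 0.85, and the gene that the annotation labels *PWD* (*AT4G24450*) by 0.77 (adjusted p = 7.80e-05 and 1.83e-05). Within the SWEET sugar transporters the direction differed between members. *SWEET1* rose by 0.53 and *SWEET2* fell by 0.63 (adjusted p = 2.88e-05 and 1.71e-04). The other falls, *SWEET4* (-0.27) and *SWEET17* (-0.17), lost their calls without MV array 1 (adjusted p = 0.0601 and 0.103) or control array 3 (0.0628 and 0.179), and *SWEET17* also without any other of the 6 arrays. Genes noticed afterwards included *PPDK*, pyruvate orthophosphate dikinase, at 7.83, 8.03 and 8.05 under MV and 6.98, 7.18 and 7.17 in the control (0.86 ± 0.09 SE, adjusted p = 3.31e-06), and *SIS*, a salt-induced gene, at 6.12, 6.23 and 6.16 under MV and 7.16, 7.31 and 7.33 in the control (-1.10 ± 0.08 SE, adjusted p = 5.06e-08).

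The measured transcripts of the photosynthetic apparatus, which MV acts on, were close between the groups apart from single genes. Of 71 nuclear genes on the list 12 were measured, and 2 of these rose, with a median of 0.01. *LHCB4.3*, an antenna protein of photosystem II, read 9.49, 9.80 and 9.64 under MV, against 8.85, 8.88 and 9.09 in the control (0.70 ± 0.09 SE, adjusted p = 4.51e-05). *LHCB4.2* rose by 0.41 (adjusted p = 7.16e-04), while *LHCB4.1* had a value of 0.06 and adjusted p of 0.515. The chloroplast genes counted were the 69 with a named probe set, and their median was 0.00. Of these 2 were higher and 2 lower, against 6.71% and 5.15% of all genes. The calls were *petD* (0.48), *rps2* (0.29), *petG* (-0.50) and *ndhJ* (-0.21). Each of these 4 calls was lost without MV array 1 or MV array 2 or both, with adjusted p of 0.0525 or more. Of 10 chlorophyll synthesis genes 3 fell, *HEME2*, *HEME1* and *HEMA2*, by 0.25, 0.22 and 0.22, and each call was lost without control array 1, among others (adjusted p = 0.0740, 0.0550 and 0.0948). Of 17 mitochondrial genes 1 rose and 2 fell. The rise, *ccb382* (0.38, adjusted p = 0.0227), lost its call without MV array 1 or 2 or control array 2 or 3 (0.0592 to 0.102). *nad1*, of respiratory complex I, has 7 probe sets, and its log2 fold changes ran from -0.68 to 0.23. The one with the highest mean read 4.91, 4.94 and 5.24 under MV, against 5.51, 5.66 and 5.66 in the control (-0.58 ± 0.11 SE, adjusted p = 0.00179).

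Of 6 measured sulfur genes 1 rose and 1 fell, and of 9 iron genes 1 rose and 2 fell. *APS4*, a chloroplast ATP sulfurylase that starts sulfate assimilation, was one of the larger falls among genes with a symbol. It read 6.91, 6.52 and 6.97 under MV, against 8.12, 8.10 and 8.22 in the control, with array 2 lowest under MV (-1.35 ± 0.10 SE, adjusted p = 3.36e-08). Of the other 5 measured sulfur genes, *SUFE2* of iron-sulfur cluster assembly was called at 0.56 (adjusted p = 0.0395), which was lost without MV array 1 or 2 or control array 2 or 3 (0.0972 to 0.135). *APS3* and sulfite reductase *SIR* had values of 0.06 and 0.17 with adjusted p of 0.594 and 0.0923. Among 9 iron genes *bHLH121*, a regulator of iron uptake, fell by 0.38 (adjusted p = 0.00319). *BHLH101* had a value of -0.70 (adjusted p = 0.0164) and lost its call without MV array 1 or control array 1 or 2 (0.0597 to 0.0948), and *bHLH115* had a value of 0.23 (adjusted p = 0.0360) and lost it in 5 of 6 such fits, falling to 0.14 without MV array 3. Of 16 heat shock and cochaperone genes 2 fell and none rose, *Fes1B* and *Fes1C*, cochaperones of cytosolic Hsp70, by 0.54 and 0.41 (adjusted p = 2.35e-06 and 1.38e-04). Over all genes 5.15% fell and 6.71% rose.

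Among senescence and autophagy genes *ATG8E*, a ubiquitin-like protein of the autophagosome, read 6.66, 6.61 and 6.58 under MV, against 7.31, 7.69 and 7.54 in the control (-0.90 ± 0.13 SE, adjusted p = 8.79e-05). *YLS5* rose by 0.34 (adjusted p = 0.00406), and over the 17 measured members the median was -0.13, with 2 higher and 3 lower. The other calls, *ATG8C*, *ATG101* (*AT5G66930*) and *SAG101*, were small (-0.27, -0.29 and 0.27) and each was lost without MV array 2 or control array 1 (adjusted p from 0.0798 to 0.205), among others. The histone H2B genes *HTB2* and *HTB4* rose by 0.40 and 0.28 (adjusted p = 1.99e-04 and 7.44e-04). In auxin biology *GH3.3*, which conjugates auxin to amino acids, and the synthesis gene *YUC2* rose by 0.54 and 0.40, and the homeobox factor *HAT2* fell by 0.32 (adjusted p = 4.65e-04, 0.00314 and 0.00604).

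A few further genes with large changes were picked out after their values were seen. *EXO*, a brassinosteroid-responsive gene of cell expansion, read 6.71, 7.09 and 6.83 under MV, against 7.96, 7.90 and 8.29 in the control (-1.17 ± 0.10 SE, adjusted p = 3.22e-07). *PLA2A*, a patatin-like phospholipase, rose (1.16 ± 0.20 SE, adjusted p = 6.88e-04), while *AR781*, which is separated from it by 2 coding genes on chromosome 2, fell (-1.18 ± 0.12 SE, adjusted p = 2.37e-06). *UPB1*, a bHLH factor known for repressing peroxidases in roots, read 2.61, 2.66 and 2.67 under MV and 3.48, 3.51 and 3.55 in the control (-0.87 ± 0.07 SE, adjusted p = 1.64e-07). The flowering repressor *SMZ*, allantoinase *ALN* of purine breakdown and the ferroxidase *LPR2* rose by 0.79, 0.80 and 0.59. Their adjusted p were 5.58e-05, 6.95e-06 and 2.18e-06, with all MV arrays above all control arrays for each.

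Several lists gave no call or had few members with a name. None of 6 class III peroxidases, 5 aliphatic glucosinolate genes, 11 cytokinin, gibberellin and brassinosteroid genes, 3 ethylene genes, 3 proteasome genes, 3 light response genes and 2 phosphate starvation genes passed. Their medians ran from -0.03 to 0.09. *SQD1* and *SQD2*, which make sulfolipid when phosphate is short, had values of 0.22 and -0.05 under MV (adjusted p = 0.236 and 0.900). The glucosinolate gene *BCAT4* read 11.13, 10.34 and 10.79 under MV, against 11.09, 11.11 and 11.18 in the control, with array 2 lowest under MV and array 1 within the control values. Its change of -0.37 did not pass in the fit with all arrays (adjusted p = 0.0969) and was -0.56 without MV array 1 (adjusted p = 0.00802).

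The same treatment in *pad2-1*, which shares no array with the WT comparison, raised 37 probe sets (0.163%) and lowered 79 (0.347%). Of the 87 probe sets raised in WT, 22 were also raised in *pad2-1*, which is 25.3% of the WT list and 59.5% of the *pad2-1* list. Of the 81 lowered in WT 23 were lowered in *pad2-1*, or 28.4% and 29.1% of the lists. The direction was mostly shared, since 83 of the 87 had a log2 fold change above 0 in *pad2-1* and 77 of the 81 one below 0, against 51.8% of all probe sets above 0. The probe sets were chosen by their WT values, and their medians were 0.70 in *pad2-1* and 1.24 in WT for the raised and -0.78 in *pad2-1* and -1.32 in WT for the lowered.

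A direct test of the difference between genotypes found a response in WT that was higher for 62 probe sets and lower for 27 at the thresholds for counts (0.273% and 0.119%), and 376 (1.65%) at the adjusted p alone. *ORA47* went opposite ways, with a log2 fold change of -1.36 in WT and 0.99 in *pad2-1* (difference -2.34, adjusted p = 3.90e-04). *STZ* fell by 1.72 in WT and had a change of 0.07 in *pad2-1* (difference -1.79, adjusted p = 0.00742). *AT3G07350* changed by -2.40 in WT and -0.35 in *pad2-1* (difference -2.05, adjusted p = 4.50e-04). Its mean was 8.03 in WT and 6.23 in *pad2-1* under the control condition, and 5.63 and 5.89 under MV. Of the rising genes, *AKR4C9* changed by 0.89 in WT and -0.55 in *pad2-1*, *PUB24* by 0.81 in WT and -0.21 in *pad2-1*, and *GT72B1* by 0.55 in WT and -0.12 in *pad2-1*. The differences of these 3 genes had adjusted p of 0.00427, 0.00474 and 0.00154. The mean of *AKR4C9* was 4.67 in WT and 8.78 in *pad2-1* under the control condition, and 5.56 and 8.23 under MV. For *PUB24* the control means were 4.97 and 5.06, and for *GT72B1* 9.25 and 9.84. The part of the starting levels in the differences was not tested. By contrast, *AT4G15660*, *RD29A*, *DREB2A* and *MSRB5* had responses of -2.44, -1.04, -0.82 and 0.94 in WT and of -2.40, -1.20, -0.81 and 0.90 in *pad2-1*. Their differences of -0.03, 0.15, -0.02 and 0.04 had SE of 0.15, 0.17, 0.18 and 0.13 and adjusted p of 0.782 or more. For *DFR*, at 1.62 in WT and 0.66 in *pad2-1*, the difference of 0.96 had an SE of 0.40 and did not pass (adjusted p = 0.324). Its *pad2-1* control arrays read 5.19, 6.76 and 6.75, with array 1 far below the others, against 6.81, 6.87 and 6.99 with MV. The *pad2-1* value of *DFR* and the SE of the difference depend on that array.

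**Figure D4:**
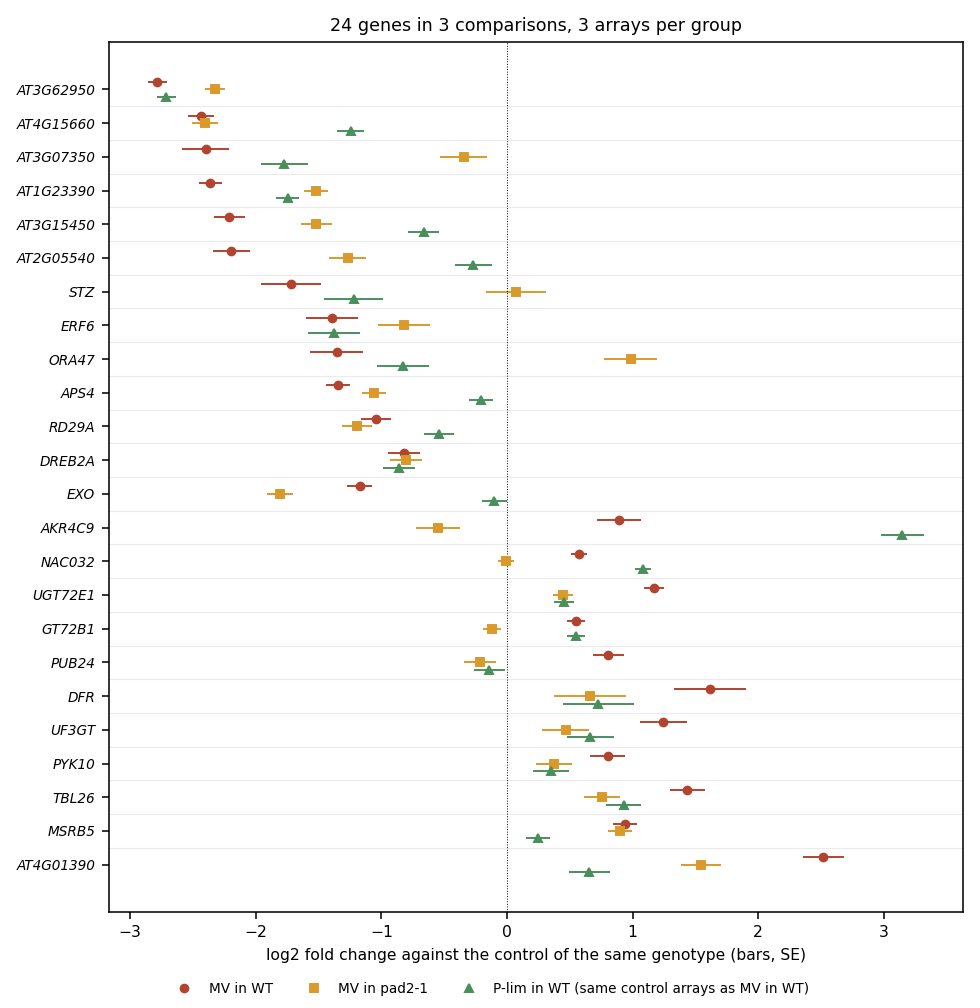
Log2 fold change (x axis, bars are SE) of 24 genes (rows) for MV in WT (red circles), MV in *pad2-1* (orange squares) and P-lim in WT (green triangles), each against the control of its genotype with 3 arrays per group. The red and orange points coincide for *AT4G15660*, *DREB2A* and *MSRB5* and lie on opposite sides of 0 for *ORA47* and *AKR4C9*.

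P-lim in WT, measured against the same control arrays, raised 93 probe sets (0.409%) and lowered 71 (0.312%). The shared arrays tie the values of both treatments together, so the treatments were set against each other directly, which leaves the control out. MV exceeded P-lim at 58 probe sets and lay below it at 70 at the thresholds for counts (0.255% and 0.308%), and 2540 (11.2%) differed at the adjusted p alone. *BHLH101* read 6.04, 6.22 and 6.43 under MV, against 3.31, 3.14 and 3.200 under P-lim (difference 3.02, adjusted p = 8.63e-09). *AKR4C9* read 5.41, 5.99 and 5.29 under MV and 7.94, 7.73 and 7.78 under P-lim, where it was far higher (difference -2.26, adjusted p = 1.43e-07). *AT2G05540*, *AT5G19120* and *AT3G15450* were lower under MV than under P-lim, with differences of -1.93, -1.61 and -1.55, as was *APS4* (-1.14), at adjusted p from 1.21e-07 to 2.47e-06. *AT4G01390*, *AT3G05400* and *PME12* exceeded their P-lim level, with differences of 1.86, 1.605 and 1.00 and adjusted p of 5.24e-07, 1.07e-05 and 6.09e-07. *AT3G62950* read 2.67, 2.67 and 2.75 under MV and 2.83, 2.83 and 2.64 under P-lim (difference -0.07, SE 0.08, adjusted p = 0.642). Both levels lay below the lower quartile of these arrays, 3.82 to 3.91, so a difference in the fall could have been missed. The difference was -0.02 for *ERF6* (SE 0.20, adjusted p = 0.973) and 0.04 for *DREB2A* (SE 0.13, adjusted p = 0.893). Against their shared control, MV and P-lim gave *UGT74D1* values of 0.91 and 1.43 and *PYK10* values of 0.80 and 0.35.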

How the data were processed

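Transcripts were measured on Affymetrix ATH1 arrays. The deposited values are log2 expression values that the authors made from all 18 arrays with RMA, according to the methods and labels; the version and build are not given in the sources used here. RMA includes quantile normalization, which removes most of any shift shared by all transcripts. Medians over all tested probe sets were 5.94 to 5.97 in WT MV arrays and 5.91 to 5.92 in WT control arrays, and an alternative aligned them. Arrays have no read depth: their number, 3 per group, limits the precision. Of 22810 probe sets 64 manufacturer controls were left out. No column went unused.

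limma 3.58.1 (R 4.3.3) fitted 6 group means to the 18 arrays, and Benjamini-Hochberg adjustment ran over the 22746 probe sets. A probe set was counted at an adjusted p under 0.05 with a change of at least 1 on the log2 scale, while single genes and lists needed the adjusted p alone. On simulated data for MV against control in WT with 22746 probe sets, 100% of changes of 1 and 100% of changes of 2 were recovered, and 13 unchanged probe sets passed the adjusted p alone and 0 passed with the minimum change. Changes under 1 were not simulated. The simulation changed 100 probe sets at each size and drew normal noise with a spread per probe set that was the same in all 6 groups. In the data the WT MV arrays were less alike than the WT control arrays and many more probe sets changed. Recovery in the data could therefore be lower. P values and SE rest on the spread between arrays of the same group, pooled over all 6 groups, with *pad2-1* and P-lim included. limma also moved the spread of each probe set toward a common value.

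Names came from GEO's probe table (14016 entries), 118 from a supplementary sheet (384 lines read) and 19 from the study's marker table; 13488 genes had 1 or more probe sets, and the one with the highest mean stands for the gene. RefSeq (TAIR10.1) gave symbols and neighbouring genes. Named genes are those of the 15 largest rises and 15 largest falls with the arrays apart, those the study names, and up to 6 called members of each list (2 where none was called). Members with values given in passing and 14 further genes were chosen after their values were seen. Members and lists were chosen with earlier results of these data known, and the ER body list was added after its values were seen. There were 55 lists, 3 of which (MV transporters, cytosolic ribosomal proteins and seed markers) had no measured member. Neither promoter nor protein sequences were used here.

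Replicate numbers are shared between groups in the titles. Deviations from the group means correlated at 0.095, -0.006 and 0.068 between MV and control arrays of the same number and from -0.201 to 0.134 between those of different numbers, so the numbers were not taken as pairs.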

Additional observations from a re-analysis of the deposited data

Results flagged for a closer look

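32 named genes had a response to MV that differed between WT and *pad2-1* in the test of the difference (limma, adjusted p under 0.05); the differences below are the log2 response in WT minus that in *pad2-1*, and no cause was tested. Genes with a lower response in WT included the large falls *AT3G07350* (-2.05, adjusted p = 4.50e-04), *AT2G20670* (-1.27), *AT5G19120* (-1.24), *AT4G27280* (-1.09), *AT2G05540* (-0.93), *AT4G15690* (-0.85), *AT1G23390* (-0.84), *AT4G15700* (-0.81) and *AT3G62950* (-0.46). They also included *ORA47* (-2.34, adjusted p = 3.90e-04), *STZ* (-1.79, adjusted p = 0.00742), *BCAT4* (-1.13), *AR781* (-0.85), *DREB1B* (-0.75), *DREB1A* (-0.59), *UPB1* (-0.53) and *SIS* (-0.47). *BCAT4*, *DREB1A* and *DREB1B* rose in *pad2-1* by 0.75, 0.42 and 0.58 (adjusted p = 0.00212, 0.00104 and 0.00574), while their WT values of -0.37, -0.18 and -0.18 were not called. Under MV, *AT3G62950* and *AT4G15700* lay below the lower quartile of every array in both genotypes, so the size of their falls may be cut short. Their control means were higher in WT than in *pad2-1*, at 5.48 and 5.06 for *AT3G62950* and 5.001 and 4.09 for *AT4G15700*. The part of these control levels in the differences of both genes was not tested.

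A higher response in WT was found for *AKR4C9* (1.44, adjusted p = 0.00427), *SUFE2* (1.15), *PUB24* (1.02, adjusted p = 0.00474), *AT4G01390* (0.97), *UGT72E1* (0.72), *NDB2* (0.72), *PPDK* (0.70), *UGT87A2* (0.68), *GT72B1* (0.67), *PME12* (*AT2G26440*, 0.61), *NAC032* (0.59), *UGT74D1* (0.56) and *LPR2* (0.38). Control levels also differed between the genotypes for some of these genes. Control means were 4.67 in WT and 8.78 in *pad2-1* for *AKR4C9*, 6.79 and 8.51 for *NAC032*, and 3.23 and 6.92 for *SUFE2*. For *PME12* the order was the other way, at 6.53 and 5.98. The part of these starting levels in the differences was not tested. *NDB2*, an alternative NADH dehydrogenase of mitochondria, changed by 0.31 in WT and -0.41 in *pad2-1* (difference, adjusted p = 0.00407); its WT call was lost without MV array 2 (adjusted p = 0.110) or any 1 control array (0.0560 to 0.0798). *LTI30* (0.98) and *EXO* (0.63) fell in both genotypes, with values of -0.60 and -1.17 in WT and -1.59 and -1.81 in *pad2-1*. Groups of 3 arrays were too small for a test of single outlying arrays.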

How the results depend on the processing

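The 87 raised and 81 lowered probe sets changed with the thresholds. With no minimum fold 1815 were higher and 1265 lower, with a minimum of 0.5 on the log2 scale 413 and 312, and with the dimmer 50% of probe sets left out 56 were higher and 62 lower, since fewer were tested. Leaving out 1 array gave 75 to 96 raised and 76 to 82 lowered, 51 to 74 above and 61 to 71 below P-lim, and 49 to 90 and 22 to 33 for a higher and a lower response in WT than in *pad2-1*. With every array shifted to the same median, 81 were raised and 85 lowered. The fit with a replicate block gave 86 raised and 81 lowered, and these numbers do not pair the arrays. Among 165 named genes no direction turned where a call was made. Of 136 called, 101 held in every fit without 1 array and 35 did not. None of the 101 lost its call with only the arrays compared, with medians aligned, with a trended robust variance or with the replicate block. In all, 24 named genes lost a call under 1 or more of those settings. Of the 165, 57 were among the dimmer probe sets and went untested in that setting.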
